A study of Homo sapiens with 10 samples.

Results

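Long noncoding and antisense transcripts were followed in OCI-LY10, a human lymphoma cell line, after exposure to CC-122. A gene was taken when its symbol in the platform's probe table ended in -AS1, -AS2 or -IT1, began with LINC or SNHG, or was one of MALAT1, NEAT1, GAS5, DLEU1, DLEU2, MIR155HG and MIR17HG. Its probe also had to be detected above the negative-control probes (detection p-value below 0.05) on at least 3 of the 10 arrays. On the array 296 symbols met the naming rule. Of these, 102 passed the detection filter and were tested among 10062 genes in all. The other 194 were not tested: 96 were detected on 0 arrays and 98 on 1 or 2. No probe of the table carried the symbol MALAT1, NEAT1, DLEU2 or MIR155HG, so these transcripts were not analysed here.

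OCI-LY10 is a line of the activated B-cell type of diffuse large B-cell lymphoma, an aggressive cancer of mature B cells. CC-122 (avadomide) is a small molecule that attaches to cereblon, which selects the substrates of a ubiquitin ligase, and directs the lymphoid transcription factors Ikaros and Aiolos to degradation. CC-122 was given to 5 samples at 1 micromolar for 18 hours, and 5 samples received the vehicle DMSO (0 micromolar) for the same 18 hours. Total RNA of each was hybridised to 1 single-colour Illumina BeadChip. The comparison shows which of these transcripts differed between treated and vehicle-treated cells of this single line. The labels do not state whether replicates were separate cultures, so the p-values measure only how these samples scatter, and that scatter may be technical.

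Long noncoding RNAs are transcripts without a long conserved reading frame. Antisense transcripts are made from the strand opposite a protein-coding gene, and some alter the transcription or the messenger RNA of that gene. SNHG genes and GAS5 are hosts of small nucleolar RNAs (snoRNAs): their introns are cut into snoRNAs that guide chemical modification of ribosomal RNA, and the spliced remainder is often destroyed by nonsense-mediated decay. MIR17HG is the primary transcript of the miR-17-92 cluster, which is amplified in some B-cell lymphomas, and DLEU1 is a noncoding gene in the region of chromosome 13 that is deleted in chronic lymphocytic leukaemia. The 102 transcripts comprised 43 antisense genes, 45 LINC genes, 12 snoRNA hosts (11 SNHG genes and GAS5), MIR17HG and DLEU1. None of the genes ending in -IT1 passed the filter. RefSeq lists 100 of the 102 as long noncoding RNA and 1 as antisense RNA, and 1 (LINC00950) was not matched.

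Across the arrays the median unprocessed intensity was 73.98 to 81.6, apart from CC-122 replicate 3 at 108.9, and 18043 to 18844 probes were detected. Normalised arrays of a group correlated at 0.989 to 0.993 over all genes tested. Of the B-cell markers, 5 of the 5 on the array were detected on all arrays, and 1 of them rose and 3 fell after CC-122. The filter was passed by 0 of 7 T and NK cell markers, 2 of 6 monocyte markers, 1 of 4 erythroid and platelet markers and 1 of 6 fibroblast and epithelial markers, and none of these was called. EPCAM, the epithelial marker that passed, was detected on all 10 arrays. Transcripts of the noncoding set gave weak signals: 37 of the 102 were detected on all 10 arrays, against 7678 of all 10062 genes. Between 65 and 72 of their probes were detected on a DMSO array and between 69 and 83 on a CC-122 array.

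After CC-122, 2 of the 102 transcripts rose and 1 fell at an adjusted p below 0.05 (limma, Benjamini-Hochberg adjustment over all 10062 genes). SERTAD4-AS1, an antisense transcript of chromosome 1, fell 4.09-fold with the main settings, to a level close to background. LINC01551, an intergenic transcript of chromosome 14, rose 2.01-fold, and LINC00623 of chromosome 1 rose 1.34-fold. Among all genes tested, 7.16% were called higher, 5.57% lower and 12.7% in either direction. That is 720 genes higher and 560 lower. With median scaling in place of quantile normalisation, 499 were higher and 161 lower. Median scaling here divided the log2 values of each array by a factor that gave all arrays the same median. Such a division shifts bright probes more than dim ones. The 3 calls are 2.94% of the 102 transcripts.

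The regions around the starts of the 3 called transcripts are shown because these are the loci whose signal moved. Each covers 300 bases on GRCh38.p14, the last 50 of them downstream of the RefSeq start. Capitals mark a match to TGGGAA, a core sequence recognised by Ikaros, searched on both strands.
SERTAD4-AS1: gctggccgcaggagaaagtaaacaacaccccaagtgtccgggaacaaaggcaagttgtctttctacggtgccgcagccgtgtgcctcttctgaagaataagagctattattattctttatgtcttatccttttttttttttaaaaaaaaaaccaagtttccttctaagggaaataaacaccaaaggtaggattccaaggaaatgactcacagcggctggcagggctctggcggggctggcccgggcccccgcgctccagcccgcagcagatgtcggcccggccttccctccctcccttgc
LINC01551: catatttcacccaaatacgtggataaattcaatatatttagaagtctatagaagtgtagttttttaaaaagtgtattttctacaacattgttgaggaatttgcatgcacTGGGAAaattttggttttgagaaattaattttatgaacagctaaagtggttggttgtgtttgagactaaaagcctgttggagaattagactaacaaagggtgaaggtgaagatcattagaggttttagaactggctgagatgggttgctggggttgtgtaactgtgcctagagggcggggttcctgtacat
LINC00623: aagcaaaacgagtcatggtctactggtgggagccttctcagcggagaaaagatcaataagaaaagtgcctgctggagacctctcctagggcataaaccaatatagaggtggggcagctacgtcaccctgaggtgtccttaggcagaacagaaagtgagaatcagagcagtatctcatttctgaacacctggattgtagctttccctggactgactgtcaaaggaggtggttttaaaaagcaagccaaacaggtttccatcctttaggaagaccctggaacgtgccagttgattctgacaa
The SERTAD4-AS1 window lies at chr1:210233836-210234135 on the minus strand, the LINC01551 window at chr14:28772454-28772753 on the plus strand and the LINC00623 window at chr1:120911988-120912287 on the plus strand. The LINC01551 window held 1 match, at window positions 110 to 115, and the other 2 windows held none. A window was available for 77 of the 102 transcripts. TGGGAA was found in 12 of these 77 (15.6%) and in 24% of all 35116 RefSeq promoter windows. Also searched were ISRE, an interferon response element, and the Ets-IRF composite element, and neither was found in the windows shown. ISRE was in 2 of the 77 (2.6%) and 3.57% of all windows. The Ets-IRF element was in 1 of the 77 (1.3%) and 2.82% of all windows. A match describes letters in the window and shows no binding. The median GC content was 54.7% in the 77 windows and 58.7% in all windows.

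SERTAD4-AS1 (chr1:210231456-210233885) is transcribed from the strand opposite SERTAD4. Its normalised log2 intensity was 6.72, 6.57, 6.63, 6.86 and 6.64 on the DMSO arrays and 5.27, 4.79, 4.27, 4.68 and 4.25 on the CC-122 arrays. Every DMSO array lay above every CC-122 array. The CC-122 arrays were the more scattered, with an SD of 0.42 against 0.11 in DMSO (n = 5 each). The probe was detected on all 5 DMSO arrays and on 3 CC-122 arrays, so the CC-122 level lies close to background. The log2 difference was -2.03 ± 0.17 (SE), with an interval at 95% of -2.40 to -1.67 and a limma adjusted p of 6.08e-06. With a larger offset added before the log (50 in place of 16) the difference was -1.20, and without background correction it was -0.83, each still called lower by limma. SERTAD4 itself was detected on 1 array and was not tested.

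LINC01551 spans chr14:28772704-28794794 on the plus strand. Its log2 intensity was 6.19, 5.92, 6.14, 6.60 and 6.09 on the DMSO arrays. It was 7.25, 7.38, 7.08, 7.08 and 7.18 on the CC-122 arrays. All CC-122 values exceeded the highest DMSO value, and DMSO replicate 4 stood above the other vehicle arrays. The log2 difference was 1.00 ± 0.11 (SE), with an interval of 0.75 to 1.25 and a limma adjusted p of 9.01e-05. It was 0.56 without background correction.

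LINC00623 (chr1:120912238-120955811) lies in a duplicated segment of chromosome 1, and its tested probe may share signal with near-identical copies. Of its 3 probes on the array, only the tested one passed the detection filter, with detection on all 10 arrays. The 5 DMSO arrays read 8.79, 8.85, 9.02, 8.91 and 8.88 on the log2 scale, and the 5 CC-122 arrays 9.38, 9.25, 9.34, 9.26 and 9.35. The groups did not overlap, and the gap between them was larger than the spread within either. The difference was 0.42 ± 0.06 (SE), interval 0.28 to 0.56, with a limma adjusted p of 7.43e-04. All 3 of these transcripts kept their call and direction under all 20 alternative settings, each left-out array among them.

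**Figure D1:**
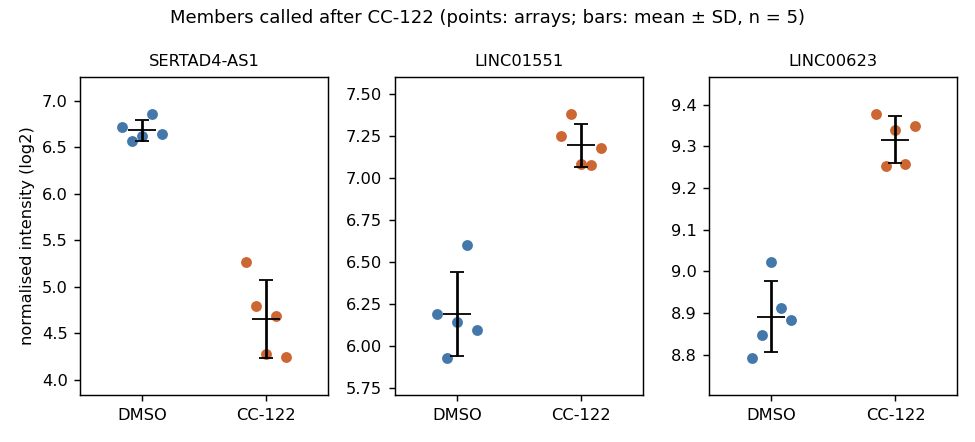
Normalised log2 intensity of the 3 called transcripts on each array, with DMSO in blue and CC-122 in orange. Points are arrays, horizontal marks the mean and bars the SD (n = 5), and the groups do not overlap in any of the 3 panels.

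The remaining 99 transcripts were not called. Their groups overlapped in all but OIP5-AS1, so that 4 of the 102 showed no overlap between groups, 3.92% against 12.3% of all genes. The median log2 difference over the 102 was 0.0058, with quartiles of -0.10 and 0.09. Over all genes it was -0.012, with quartiles of -0.13 and 0.11. Signs were nearly balanced, with 52 of the 102 positive. The median size of the difference, sign ignored, was 0.0993 for the 102 and 0.119 for all genes. The median SE was 0.119 for the 102 and 0.0958 for all genes. For 92 of the 99 uncalled transcripts the interval lay inside a 1.5-fold change in either direction. The intervals of the other 7 reached past it, and these cannot be bounded as tightly. The widest was LINC00323, at 0.22 with an interval of -0.43 to 0.87. Of the 99, 56 had a mean log2 intensity below 5, where the lowest detected signal of an array was 4.63 to 4.67. For probes so near background, a narrow interval does not show that the RNA changed by less than 1.5-fold. At an unadjusted p below 0.05, 12 of the 102 (11.8%) passed, against 25.4% of all genes.

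**Figure D2:**
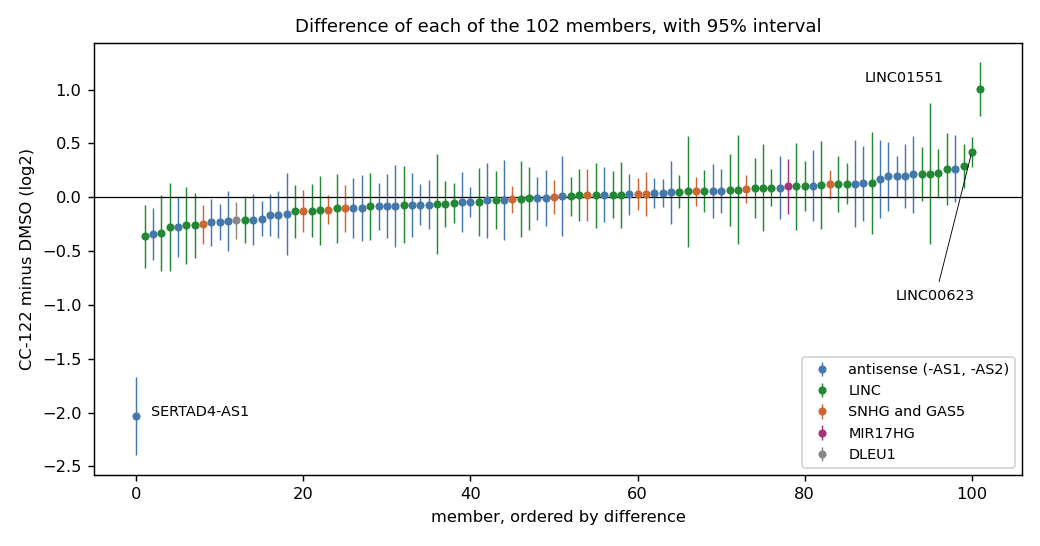
Log2 difference (CC-122 minus DMSO) of each of the 102 transcripts in rising order, with bars for the 95% interval and colours for the kind of transcript. SERTAD4-AS1 at -2.03 and LINC01551 at 1.00 stand apart from a band that lies between -0.36 and 0.42.

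Signal strength and calls moved together across genes, so calls were also counted by mean log2 intensity, in classes chosen after the values were seen. Below 5, where 56 of the 102 lay, 0 were called, against 4.63% of 2181 other genes. From 5 to 7, 2 of 27 (7.41%) were called, against 14.4% of 3481 others. At 7 and above, 1 of 19 (5.26%) was called, against 15.7% of 4298 others. The median SE was alike within a class: 0.0689 for these transcripts and 0.0749 for other genes in the brightest class. The median size of the difference in that class was 0.0768 and 0.102. The difference between these shares was not tested.

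**Figure D3:**
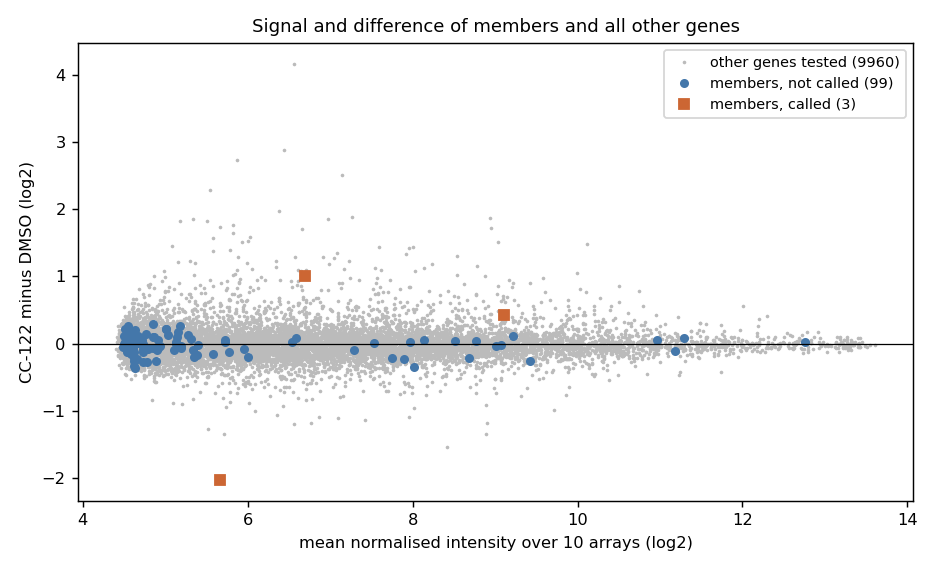
Mean log2 intensity over the 10 arrays against the log2 difference for the 102 transcripts (blue circles, not called; orange squares, called) and the 9960 other genes tested (grey). Most of the transcripts sit at the dim end, and 19 have a mean of 7 or more.

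The antisense transcripts were followed beside the protein-coding gene each is named after. Of the 43, 1 fell (SERTAD4-AS1), 0 rose and 42 were not called, with a median difference of -0.03. The namesake was on the array for 40 and was tested for 22. In these 22 pairs both partners were called in 0, the namesake alone in 4 and neither in 18. The 4 namesakes are 18.2% of 22, beside the 12.7% called among all genes. Whether a transcript and its namesake differed in response was not tested.

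OIP5 encodes a protein needed to load the centromeric histone CENP-A, and OIP5-AS1 is known as an abundant cytoplasmic noncoding RNA that binds the protein HuR. OIP5 fell, with log2 intensities of 9.86, 9.86, 9.56, 9.84 and 9.86 in DMSO and 9.30, 9.33, 9.13, 9.41 and 9.15 in CC-122. The difference was -0.53 ± 0.08 (SE), with a limma adjusted p of 9.95e-04. OIP5-AS1 read 8.16, 8.40, 8.14, 8.16 and 8.06 in DMSO and 7.95, 8.01, 7.50, 8.05 and 7.70 in CC-122. Its groups did not overlap, but the margin between the lowest DMSO and highest CC-122 array was small. The OIP5-AS1 difference was -0.34 ± 0.11 (SE), with an interval of -0.58 to -0.10 and a limma adjusted p of 0.0645. It passed the threshold without background correction, with the offset of 50, with an intensity trend, with array weights, with the replicate block and without CC-122 replicate 4. Of these settings, array weights gave an adjusted p of 0.0432 and the replicate block 0.0454. The promoter windows of the pair lie on opposite strands of chromosome 15 and share 0 bases. The OIP5-AS1 window (chr15:41283740-41284039) held 1 TGGGAA match, at window positions 234 to 239, and the OIP5 window (chr15:41332542-41332841) held none. The OIP5-AS1 gene as listed in RefSeq begins at position 41282697, upstream of this window, so the window does not surround that start.

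RUSC1, which encodes an adaptor protein with RUN and SH3 domains, rose from 7.46, 7.42, 7.48, 7.48 and 7.40 in DMSO to 8.18, 8.04, 8.18, 8.10 and 8.12 in CC-122. The difference was 0.68 ± 0.06 (SE), with a limma adjusted p of 8.31e-06, and the groups were far apart. RUSC1-AS1 was detected on 2 arrays of each group and differed by -0.16 ± 0.10 (SE, limma adjusted p of 0.360). The pair's promoter windows lie on opposite strands and share 170 bases. ID2, an inhibitor of basic helix-loop-helix factors, rose by 0.27 ± 0.06 (SE, limma adjusted p of 0.0109). ID2-AS1, whose window shares 292 bases with that of ID2, differed by -0.01 ± 0.09. The ID2-AS1 probe was detected on 4 DMSO and 3 CC-122 arrays. Its mean log2 intensity was 4.73 in DMSO and 4.72 in CC-122, close to background. INTS6, a subunit of the Integrator complex that processes small nuclear RNAs, fell by 0.27 on the log2 scale (SE 0.08, limma adjusted p of 0.0436). INTS6-AS1, detected on all 10 arrays and with a window sharing 192 bases, differed by -0.07 ± 0.09. In 7 of the 10 fits that left out 1 array, INTS6 was no longer called. Median scaling of the log2 values in place of quantile normalisation ended the calls of INTS6 and ID2. INTS6 also lost its call with the replicate block and when dim probes were kept. All 30 pairs with both windows lie on opposite strands, and in 5 the windows share bases.

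**Figure D4:**
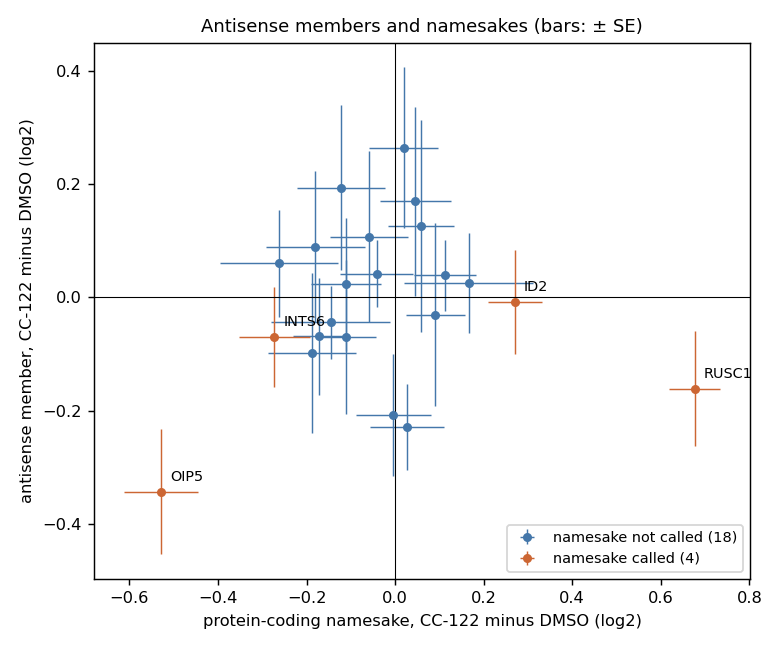
Log2 difference of each protein-coding namesake (horizontal axis) against that of its antisense transcript (vertical axis) for the 22 pairs tested, with bars of 1 SE. The 4 called namesakes (orange) run from -0.53 for OIP5 to 0.68 for RUSC1, while their antisense transcripts lie between -0.34 and -0.01.

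The intergenic LINC group held both rises. Of 45, 2 rose, 0 fell and 43 were not called (4.44% called, beside 12.7% of all genes), with a median difference of 0.02. LINC00426 came nearest to a further call, at 4.55, 4.90, 4.85, 4.53 and 4.71 in DMSO and 5.04, 5.12, 4.87, 5.11 and 4.84 in CC-122. The groups overlapped, with detection on 3 DMSO and 5 CC-122 arrays. Its difference was 0.29 ± 0.09 (SE) with a limma adjusted p of 0.0699, and it was called higher when DMSO replicate 2 was left out. LINC02396 had the lowest value of the group at -0.36 ± 0.13 (SE, limma adjusted p of 0.105) and was detected on 3 DMSO arrays and 1 CC-122 array. LINC02396 was called lower when DMSO replicate 5 was left out (limma adjusted p of 0.0364). Some of the 102 were detected in 1 group alone. Of the 102, 5 were detected on none of the DMSO arrays, against 117 of all 10062 genes. Only 1, IGFBP-AS1, was detected on none of the CC-122 arrays, against 62 of all genes. Of these 6 transcripts, 0 were called. These 6 passed the detection filter through 1 group alone.

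Of the 12 snoRNA hosts, 0 rose and 0 fell, beside 12.7% called among all genes, and their differences ran from -0.25 to 0.12 with a median of 0.01. SNHG7 had the largest difference in size. It read 9.65, 9.59, 9.33, 9.63 and 9.54 in DMSO and 9.50, 9.32, 9.20, 9.24 and 9.23 in CC-122, and the groups overlapped through DMSO replicate 3 and CC-122 replicate 1. The SNHG7 difference was -0.25 ± 0.08 (SE, limma adjusted p of 0.0683), and a dimmer probe of the gene gave -0.17. It was called lower without background correction, with the offset of 50, with an intensity trend, with array weights, and without DMSO replicate 3 or CC-122 replicate 1. SNHG15, at 0.12 with an interval of -0.02 to 0.25, and SNHG32, at -0.11 with an interval of -0.25 to 0.02, came next among the brighter hosts.

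The other SNHG genes stayed within narrow intervals. SNHG5, a bright probe, read 12.69, 12.77, 12.94, 12.70 and 12.64 in DMSO and 12.79, 12.73, 12.82, 12.73 and 12.81 in CC-122. The difference of SNHG5 was 0.03, with an interval of -0.12 to 0.18. The differences were 0.08 for SNHG6 (interval -0.05 to 0.20), 0.05 for SNHG9 (-0.08 to 0.19) and -0.02 for SNHG17 (-0.15 to 0.11). SNHG4 differed by 0.0012 (-0.16 to 0.16), SNHG8 by 0.02 (-0.22 to 0.26), SNHG11 by 0.03 (-0.18 to 0.24) and SNHG12 by -0.10 (-0.32 to 0.12). None of these intervals reached a 1.5-fold change.

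GAS5, a growth-arrest transcript whose exons also bind the glucocorticoid receptor, gave a dim probe. It read 4.62, 4.34, 4.69, 4.80 and 4.57 in DMSO and 4.38, 4.43, 4.48, 4.64 and 4.43 in CC-122. The groups overlapped, and the probe was detected on 2 DMSO arrays and 1 CC-122 array, so this probe measured GAS5 only near background. The difference was -0.13 ± 0.09 (SE), interval -0.32 to 0.07, with a limma adjusted p of 0.419.

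The snoRNAs cut from these hosts work in ribonucleoprotein particles. Of 15 snoRNP protein genes tested, 0 rose and 2 fell, with a median of -0.03. Among all genes tested, 12.7% were called, which is the background for this list and the 2 that follow. RUVBL1, an ATPase used in particle assembly, fell by 0.40 on the log2 scale (SE 0.07, limma adjusted p of 0.00142). GAR1, a core protein of the box H/ACA particles, fell by 0.31 (SE 0.07, limma adjusted p of 0.0101), and its call was lost when its probes were averaged. Of 19 genes of nonsense-mediated decay, 0 rose and 1 fell: EIF4A3, the helicase of the exon junction complex, by 0.27 (SE 0.07, limma adjusted p of 0.0210). EIF4A3 was not called when 1 of 3 arrays was left out. Of 22 paraspeckle protein genes, which work with NEAT1, 1 rose: SMARCA4, a chromatin remodelling ATPase, by 0.38 ± 0.09 (SE, limma adjusted p of 0.0122). Median scaling ended the calls of all 4 of these genes, and the replicate block that of EIF4A3.

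**Figure D5:**
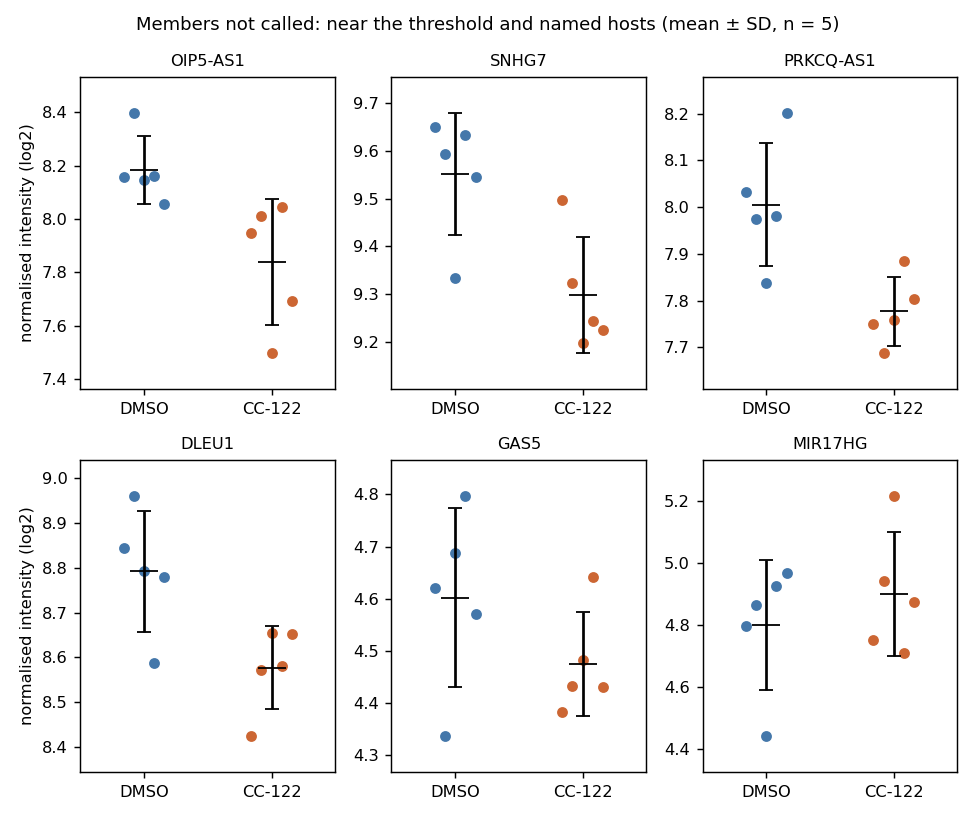
Normalised log2 intensity on each array for OIP5-AS1, SNHG7, PRKCQ-AS1, DLEU1, GAS5 and MIR17HG, none of which was called, with each panel on its own scale. Points are arrays (DMSO blue, CC-122 orange) with mean and SD (n = 5), and the groups overlap in every panel but that of OIP5-AS1.

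MIR17HG is shown with 6 of the 12 mature microRNA arms it encodes on chromosome 13 (plus strand, RefSeq, GRCh38.p14), because the target genes described next are those reported for this cluster. Seeds (bases 2 to 8) are in capitals. The first pair shares a seed, as does the pair of miR-19 arms.
hsa-miR-17-5p: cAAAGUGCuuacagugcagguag
hsa-miR-20a-5p: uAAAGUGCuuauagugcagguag
hsa-miR-18a-5p: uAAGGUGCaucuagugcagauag
hsa-miR-19a-3p: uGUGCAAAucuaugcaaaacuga
hsa-miR-19b-3p: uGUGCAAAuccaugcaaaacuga
hsa-miR-92a-3p: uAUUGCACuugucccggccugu
The MIR17HG probe read 4.80, 4.86, 4.44, 4.92 and 4.97 in DMSO and 4.75, 4.94, 5.22, 4.71 and 4.87 in CC-122. The groups overlapped over most of their range, and detection was on 4 DMSO and 5 CC-122 arrays. The difference was 0.10 ± 0.12 (SE), interval -0.16 to 0.36, with a limma adjusted p of 0.657. The array measures the host transcript and not the mature microRNAs.

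Of 18 reported miR-17-92 targets tested, 4 rose and 1 fell, with a median of 0.06. Among all genes tested 7.16% rose and 5.57% fell, 12.7% in all, with a median of -0.012, and the counts of the lists that follow stand beside the same shares. For CD22, an inhibitory B-cell receptor for sialic acid, the log2 difference was -0.78 ± 0.10 (SE, limma adjusted p of 1.92e-04). FCGR2B, the inhibitory Fc receptor, rose by 0.65 (SE 0.08, limma adjusted p of 1.92e-04), and TNFRSF1B, a receptor for tumour necrosis factor, rose by 0.49 (SE 0.09, limma adjusted p of 0.00391). Of 18 miR-155 targets, 1 rose and 3 fell, with a median of -0.12. BCL6, a germinal-centre repressor, fell by 0.55 (SE 0.07), CEBPB, a basic leucine zipper factor, fell by 0.42 (SE 0.09), and GCSAM, a germinal-centre signalling protein, rose by 0.51 (SE 0.10). Their limma adjusted p-values were 2.10e-04, 0.00565 and 0.00508. Of 20 microRNA-processing genes, 2 rose and 0 fell: DGCR8, the partner of Drosha, by 0.55 ± 0.10 (SE, limma adjusted p of 0.00301), and ADAR, an RNA-editing enzyme, by 0.52 ± 0.08 (SE, limma adjusted p of 9.49e-04). Of these genes, CEBPB lost its call under median scaling. These lists are described by their counts alone, and nothing is drawn from them about microRNA activity.

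DLEU1 read 8.84, 8.96, 8.79, 8.59 and 8.78 in DMSO and 8.43, 8.57, 8.65, 8.58 and 8.65 in CC-122. CC-122 arrays were lower on average, with overlap through DMSO replicate 4. The difference was -0.21 ± 0.08 (SE), interval -0.39 to -0.04, with a limma adjusted p of 0.104. Another DLEU1 probe gave -0.31, and the mean of both probes was called lower (limma adjusted p of 0.0205). The brighter probe was called lower without background correction, with the offset of 50, with an intensity trend and without DMSO replicate 4. DLEU1 lies near the genes of miR-15a and miR-16-1. Of 12 reported targets of these microRNAs, 2 rose and 1 fell, with a median of -0.03, beside 12.7% called among all genes. The cyclin gene CCND3 rose by 0.39 ± 0.08 (SE, limma adjusted p of 0.00366). The survival gene BCL2 rose by 0.30 ± 0.08 (SE, limma adjusted p of 0.0328), and CHEK1, a checkpoint kinase, fell by 0.25 (SE 0.07, limma adjusted p of 0.0270). BCL2 was not called in 7 of the 10 fits that left out 1 array, and CHEK1 in 5. Neither was called under median scaling, nor CHEK1 with the replicate block.

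PRKCQ-AS1, an antisense transcript of the protein kinase C theta locus, was named after its values were seen. Its bright probe read 8.03, 7.98, 7.84, 7.98 and 8.20 in DMSO and 7.75, 7.69, 7.76, 7.89 and 7.80 in CC-122, with overlap through DMSO replicate 3 and CC-122 replicate 4. The difference was -0.23 ± 0.08 (SE, limma adjusted p of 0.0715), while a dimmer probe detected on 6 arrays gave 0.08. The bright probe was called lower without background correction, with the offset of 50, with an intensity trend and without DMSO replicate 3. LINC00339 and LINC01089 also had probes that pointed in opposite directions, so 3 of the 6 transcripts with several probes kept gave no single direction.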

How the data were processed

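The deposited unprocessed values are summarised bead intensities of 48107 probes on 10 arrays, each with a detection p-value, per the file headers. Which software summarised the beads is not given in the sources used. The deposited processed values of 34468 probes are on a log2 scale and served as an alternative. Each of their 10 columns matched its own array best after normalisation here, with a correlation of at least 0.99993. Intensities were background-corrected and quantile-normalised with neqc (limma 3.58.1, R 4.3.3), with an offset of 16. A probe with a missing value (1) was left out. Probes naming 1 gene (26359) were kept when 3 or more arrays had a detection p-value below 0.05, leaving 13127. The brightest probe stood for each gene. Another 21745 probes were not in the gene table and 3 named several genes. Groups of 5 were compared with lmFit and eBayes, and calls used a Benjamini-Hochberg adjusted p below 0.05. The number of arrays limits the precision. No arrays were identical (0 pairs). The method was tested on simulated data.

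The labels do not say what a replicate number shares, so the main fit did not take the numbers as pairs. In the file headers, same-numbered DMSO and CC-122 arrays carry consecutive sample numbers, and what these numbers reflect is not stated. The deviations of same-numbered arrays correlated at 0.0606, 0.0426, 0.0610, -0.0023 and 0.118, which does not exclude a weak shared effect. Alternatives were another background correction, offset, scaling, filter, probe summary, intensity trend, array weights, the replicate block and leaving out each array.

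Genes named in the text were every called transcript, the genes the naming rule lists, every SNHG gene, the namesakes of called antisense transcripts, transcripts with a called namesake, and up to 3 called genes a list. Others are named because of their values. The members and lists were chosen with earlier results of these data known. The intensity classes, motif search and neighbouring genes were added after the values were seen. Promoter and microRNA sequences and coordinates are from RefSeq, GRCh38.p14.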

Additional observations from a re-analysis of the deposited data

Results flagged for a closer look

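Of 42 groups of 5 arrays examined over the named transcripts, 2 had an array set apart from the others, both for the snoRNA host SNHG32. Chance flags about 1 in 20 groups. DMSO replicate 2 read 11.10 on the log2 scale, and the other DMSO arrays read 11.27 to 11.30. CC-122 replicate 4 read 11.07, and the other CC-122 arrays read 11.13 to 11.15.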

How the results depend on the processing

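SERTAD4-AS1, LINC01551 and LINC00623 were called in the same direction under all 20 alternatives, the replicate block included. The count of transcripts called higher was 2 throughout, except 3 without DMSO replicate 2. The count called lower was 1 in the main setting and 5 without background correction, with the offset of 50 and with an intensity trend. It was 2 with no filter on dim probes, on averaging each gene's probes and with the replicate block, and 3 with array weights. The call added with no filter was LINC01144, which was detected on 0 arrays. Leaving out 1 array gave 1 to 3 lower and a median difference of -0.020 to 0.010, the lowest without DMSO replicate 3. The transcripts called were 1.35% to 6.86% of those tested, and less than all genes under each setting. Differences near 0 changed sign: SNHG17 was 0.027 and ID2-AS1 0.019 under median scaling, and SNHG4 was -0.013 and ID2-AS1 0.0093 with array weights. Without single arrays SNHG4 ran from -0.030 to 0.038, SNHG8 from -0.065 to 0.075, SNHG11 from -0.027 to 0.090 and ID2-AS1 from -0.056 to 0.048. The cause of these changes was not tested. With the replicate block, 648 genes of all tested rose and 475 fell. Deviations of same-numbered arrays correlated weakly (5 correlations, 1 above 0.1). DMSO replicates 1, 2, 3 and 5 and CC-122 replicates 1, 3 and 5 matched their own number best, and the other arrays did not. Whether same-numbered arrays share a batch was not tested. Of all genes tested, no filter on dim probes gave 654 higher and 469 lower, and no background correction 858 and 788. Signal near background limits what can be read from transcripts detected on few arrays.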

Other observations

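The next protein-coding gene on either side of each transcript was looked up after the values were seen. No limit was set on distance, so a gene beside a transcript is next in order and may lie far away. Of 97 such neighbours tested, 10 rose and 5 fell (15.5%, beside 12.7% of all genes), and the difference between these shares was not tested. The namesakes OIP5, RUSC1, ID2 and INTS6 are 4 of these 15. IFTAP, beside LINC02760, rose by 0.81 ± 0.08 (SE, limma adjusted p of 3.72e-05), where LINC02760 was detected on 0 DMSO and 3 CC-122 arrays and differed by 0.06. MYO1G, which encodes a myosin of lymphocyte membranes and lies beside SNHG15, rose by 0.80 ± 0.10 (SE, limma adjusted p of 1.33e-04), where SNHG15 differed by 0.12. CSTF3, a cleavage stimulation factor subunit beside LINC00294, rose by 0.61 ± 0.06 (SE, limma adjusted p of 1.31e-05), where LINC00294 differed by -0.21 without a call. HES1, a repressor in the Notch pathway beside LINC02036, fell by 0.61 on the log2 scale (SE 0.12, limma adjusted p of 0.00523), where LINC02036 was detected on 1 DMSO and 2 CC-122 arrays and differed by 0.02. TGIF1, a homeobox repressor beside DLGAP1-AS1, rose by 0.42 ± 0.06 (SE, limma adjusted p of 6.15e-04), where DLGAP1-AS1 differed by -0.20 (limma adjusted p of 0.106). RSPH3, beside EZR-AS1, rose by 0.52 ± 0.12 (SE, limma adjusted p of 0.0118). SETD1B, beside LINC01089, rose by 0.47 ± 0.13 (SE, limma adjusted p of 0.0396). The other called neighbours that are not namesakes differed by less. Apart from the namesakes, the calls of neighbours were not followed across the alternative settings.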
